A study of Mus musculus with 12 samples.

Results

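The genes described here encode 10 enzymes that degrade the second messenger cAMP: Pde3a, Pde3b, Pde4a, Pde4b, Pde4d, Pde7a, Pde7b, Pde8a, Pde8b and Pde10a. They were chosen by name, as members of the PDE3, PDE4, PDE7, PDE8 and PDE10 families, out of 55573 genes in the count table. Earlier results of these data were known at that choice, so counts among the 10 are not those of an independent list. Pde4c, the remaining PDE4 gene, was left out and is given further below. All 10 were measured and passed edgeR's filter on low counts, which kept 16761 genes. RNA came from astrocyte-enriched cortical cultures of C57BL6/J mouse pups, taken at postnatal day 0 to 2, that carried a lentivirus for 5 days. The virus was either the control pCIG3 (pCMV-IRES-GFP), which expresses GFP from a CMV promoter, or pCIG3-ACREB. ACREB is a dominant-negative protein that binds the transcription factor CREB and keeps it from DNA. PBS or vasoactive intestinal peptide (VIP, at 0.5 µM) was then applied for 30 min, and RNA was harvested after 90 min of recovery. Each of the 4 combinations, control PBS, control VIP, ACREB PBS and ACREB VIP, had 3 libraries, numbered 1 to 3. Whether libraries of a group come from different cultures or litters is not stated, so the p-values speak only of the variation among these libraries and that variation may be technical. The cultures were grown in serum, shaken to detach other glia and re-plated, and each virus was delivered to the whole culture.

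VIP acts on receptors that couple to the stimulatory G protein, which activates adenylyl cyclase and raises cAMP. Phosphodiesterases hydrolyse cAMP and so end the signal that runs through protein kinase A to CREB. The families differ in substrate. PDE4, PDE7 and PDE8 enzymes are specific for cAMP, PDE3 enzymes hydrolyse cAMP and are inhibited by cGMP, and PDE10A hydrolyses both cyclic nucleotides. In the brain PDE10A is best known from the projection neurons of the striatum, and PDE4 enzymes are the targets of rolipram. Transcription of some PDE4 genes is known to rise with cAMP, as a form of feedback.

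RefSeq promoter windows of GRCm38.p6, each of 300 bases from 250 before to 50 after an annotated start, were available for 7 of the 10 genes. These 7 genes, Pde4a, Pde4b, Pde4d, Pde7b, Pde8a, Pde8b and Pde10a, had 17 windows, some of which overlap each other. Pde3a, Pde3b and Pde7a had no entry. The windows were searched on both strands for the palindromic cAMP response element TGACGTCA and for its shorter form TGACG, which the palindrome contains. The last 120 bases before the start are shown for Pde10a and Pde4d, the genes that rose with VIP, and for the Pde4b start that holds the shorter form, all on the plus strand, with that match in capitals on the strand printed.
Pde10a, chr17:8801625-8801744: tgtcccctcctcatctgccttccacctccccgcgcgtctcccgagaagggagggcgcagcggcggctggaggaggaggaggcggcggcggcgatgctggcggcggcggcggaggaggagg
Pde10a, chr17:8849865-8849984: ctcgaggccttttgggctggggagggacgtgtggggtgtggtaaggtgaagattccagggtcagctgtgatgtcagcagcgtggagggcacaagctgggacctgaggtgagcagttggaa
Pde4d, chr13:108654057-108654176: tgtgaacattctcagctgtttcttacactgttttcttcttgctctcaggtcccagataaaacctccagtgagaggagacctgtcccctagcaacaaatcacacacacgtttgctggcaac
Pde4b, chr4:102421435-102421554: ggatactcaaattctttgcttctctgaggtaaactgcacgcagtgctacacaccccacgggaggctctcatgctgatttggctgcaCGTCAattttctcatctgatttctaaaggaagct

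None of the 17 windows held TGACGTCA, which was present in 1.79% of all 32851 windows in the table. TGACG was found in 4 of the 17, or 23.5%, against 20.8% of all windows, in 1 window each of Pde4a, Pde4b, Pde8a and Pde8b. The Pde4b match lies 34 bases before the start on the minus strand, and the Pde8a match 84 bases before it. The windows of Pde10a and Pde4d held neither form. GC content differed among them, at 71.3% and 56.7% for the Pde10a windows and 39.7% for the Pde4d window. Pde4d has 20 annotated transcripts and Pde10a has 14, so these windows cover few of their possible starts. The counts are summed over all transcripts of a gene.

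The libraries held 16571398 to 20529238 counts. Library 2 of control PBS stood apart on the first principal component, at 81.2, followed by library 2 of ACREB PBS at 34.6, with the other 10 between -29.0 and 7.02. GC content and gene length accounted for 47.9% and 27.8% of the departure of these libraries from the median library. The 9 astrocyte markers had counts in every group, with a summed level of 5276 to 6499 CPM (counts scaled to a common library size) per library. Markers of other cells were present too. Summed microglia markers ranged from 818 to 2163 CPM per library, fibroblast and mural markers from 3274 to 5718, oligodendrocyte lineage markers from 1155 to 1860 and neuron markers from 442.5 to 605. Acta2 and Tagln averaged 2211 and 2004 CPM in control PBS, where the fibroblast and mural sum averaged 4408. The rest of that list ran from 67.25 CPM for Col1a1 to 0.13 for Kcnj8. Map2 (263.8 CPM) and Dlg4 (100.5) led the neuron sum of 497.2 there, while Rbfox3 had 1.08 and Snap25 1.22. Both sums thus rest mainly on a few genes. In bulk RNA, fewer cells of a type and less RNA per cell cannot be told apart.

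The 2 PBS libraries numbered 2 shifted the phosphodiesterase genes in a patterned way. On the log2 CPM scale, library 2 of control PBS lay above the mean of libraries 1 and 3 for Pde4a (0.93), Pde8b (0.74) and Pde8a (0.60). It lay below for the other 7 genes, from -0.29 for Pde4b to -1.74 for Pde7b. In ACREB PBS the shift of library 2 had the same sign for all 10 genes and was smaller for each, from -1.22 for Pde7b to 0.57 for Pde8b. The longest transcript of Pde4a was the richest in GC at 57.2%, and that of Pde7b the poorest at 42.1%. Between these extremes the sign did not follow GC throughout. In control PBS, Pde4d at 49.8% shifted by -0.78 and Pde8a at 49.2% by 0.60. The part of GC content in the results of single genes was not tested beyond the offsets named below.

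**Figure D1:**
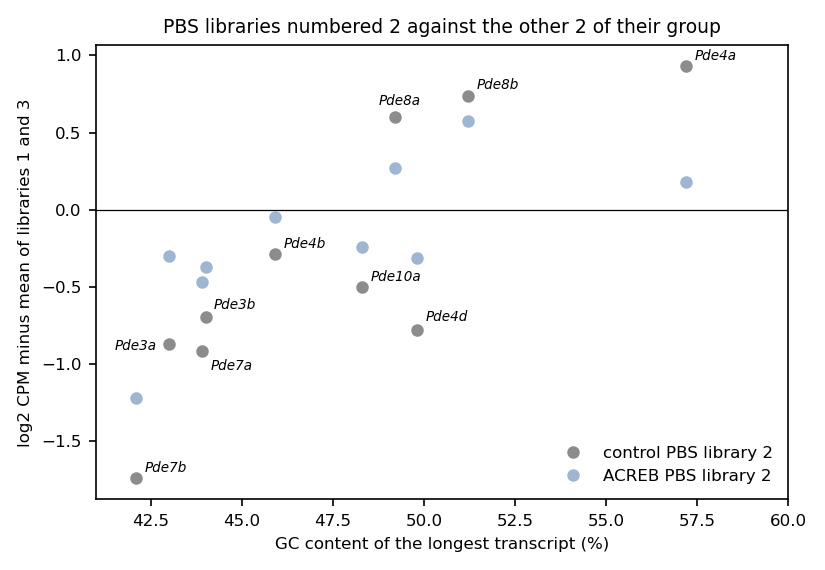
Log2 CPM of PBS library 2 minus the mean of libraries 1 and 3 of its group (y axis), against the GC content in percent of each gene's longest transcript (x axis), for control virus and ACREB. Pde4a, Pde8a and Pde8b lie above 0 and the other 7 genes below it in both groups.

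Levels between genes were compared as CPM per kilobase of exons, which takes gene length out. With control virus and PBS, Pde4b, which encodes a cAMP-specific enzyme with prominent roles in immune cells and brain, had the highest level at 5.64 ± 0.632 CPM per kb (SD, n = 3). Pde8b, a high-affinity cAMP phosphodiesterase gene, followed at 3.93 ± 1.41, then Pde7a at 3.66 ± 1.19, Pde3a at 3.37 ± 1.04, Pde3b at 3.08 ± 1.09 and Pde10a at 2.33 ± 0.515. Pde4a (1.77 ± 0.722), Pde4d (1.48 ± 0.595) and Pde8a (1.47 ± 0.400) were lower. The ranges of neighbours in this order overlapped down to Pde8a, and the lowest gene, Pde7b at 0.494 ± 0.398 CPM per kb, lay below Pde8a without overlap.

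The order changed with VIP. In control VIP, Pde10a led at 10.4 ± 1.77 CPM per kb, and its 3 libraries, at 9.31 or above, did not overlap those of Pde4b, at 8.70 or below. Pde4d stood at 4.72 ± 0.988, with ranges that overlapped those of its neighbours Pde7a and Pde3b. In ACREB VIP, Pde4b was first at 6.90 ± 0.264 and Pde10a came next at 6.30 ± 0.960, with overlapping ranges. Summed over the 10 genes, the level was 27.2 ± 2.79 CPM per kb in control PBS, 45.8 ± 4.53 in control VIP, 29.5 ± 1.51 in ACREB PBS and 38.9 ± 2.69 in ACREB VIP. Pde10a made up 8.48% ± 1.03 of that sum in control PBS and 22.7% ± 1.95 in control VIP, against 8.53% ± 0.530 and 16.2% ± 1.33 with ACREB.

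**Figure D2:**
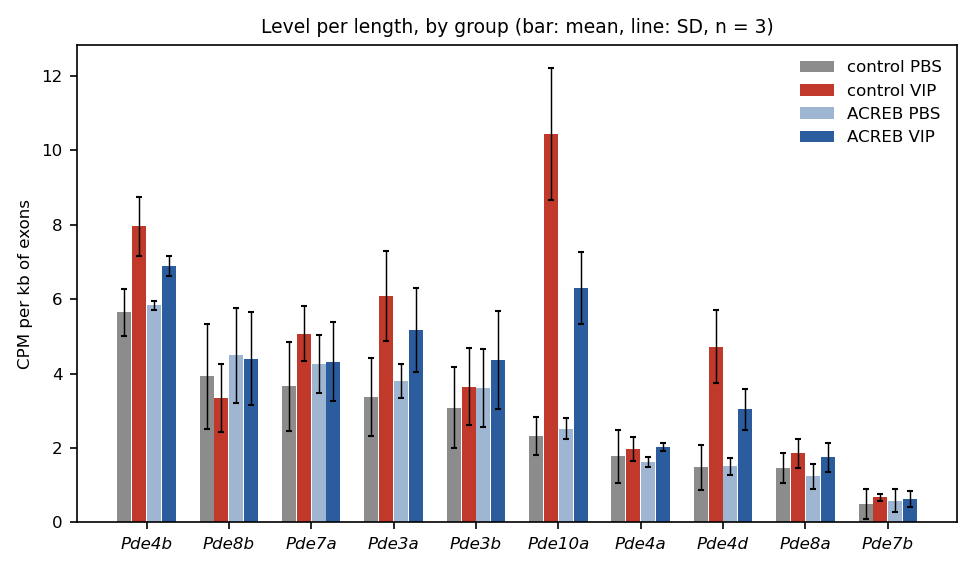
Level of each gene as CPM per kilobase of exons (y axis), with a bar for the mean and a line for the SD of 3 libraries in each of the 4 groups. Pde4b has the highest bar with PBS, and Pde10a rises from 2.33 to 10.4 with VIP and control virus.

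The first comparison asked which phosphodiesterase genes respond to VIP in cultures with control virus. Pde10a and Pde4d rose, by 4.48-fold and 3.19-fold, and the other 8 genes did not pass the test. The call is edgeR's quasi-likelihood test at a Benjamini-Hochberg adjusted p under 0.05 over all 16761 genes tested. It was met by 2 of the 10 genes in the upward direction, where 0.424% of all genes were called, and by 0 in the downward direction, where 0.0656% were. Of the 10 genes, 9 had a positive log2 fold change and the median was 0.46, beside a median of -0.02 over all genes tested. At an unadjusted p under 0.05, 4 were higher (all genes, 3.28%) and 0 were lower (all genes, 3.14%).

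Pde10a (ENSMUSG00000023868, chromosome 17, 8525372 to 8986648, GRCm38) encodes the dual-substrate enzyme. In the order of library numbers 1 to 3, used throughout, its level with PBS was 29.8, 23.3 and 36.6 CPM. With VIP it was 160.3, 122.4 and 119.6 CPM. The lowest VIP library was more than 3 times as high as the highest PBS library, so the groups did not overlap. The log2 fold change was 2.16 (SE 0.19, adjusted p = 0.000417, edgeR), and the gene ranked 3 of all genes tested by p. Within the numbered pairs the log2 rise was 2.42, 2.38 and 1.71. The call held in each of the 12 fits that left out 1 library, with log2 fold changes from 2.01 to 2.33, and was lost when only the 6 libraries compared were fitted (2.18, adjusted p = 0.064, edgeR).

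Pde4d (ENSMUSG00000021699, chromosome 13, 108449948 to 109953461) encodes a cAMP-specific enzyme that is itself activated by protein kinase A in its long forms. It measured 15.8, 11.7 and 25.6 CPM in control PBS and 70.2, 48.3 and 51.5 CPM in control VIP. The groups did not overlap, and library 3 had the highest PBS level and the smallest rise. The log2 fold change was 1.68 (SE 0.26, adjusted p = 0.0153, edgeR), with rises of 2.14, 2.03 and 1.00 within the pairs. The call held in 9 of the 12 fits that left out 1 library, and log2 fold changes over the 12 ran from 1.45 to 2.04. It was lost without control PBS library 1 (adjusted p = 0.091), control VIP library 1 (0.086) or control VIP library 3 (0.058), and with only the 6 libraries compared (0.242, all by edgeR), at log2 fold changes of 1.49 to 1.75.

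The other PDE4 genes had smaller changes. Pde4b (ENSMUSG00000028525, chromosome 4, 102087543 to 102607259) measured 62.9, 51.9 and 64.0 CPM in control PBS and 85.0, 91.8 and 75.1 CPM in control VIP, without overlap. Its log2 fold change was 0.49 (SE 0.11, adjusted p = 0.106, edgeR). It passed with the replicate number as a block (0.50, adjusted p = 0.045, edgeR) and with DESeq2 (0.51, adjusted p = 0.00372), and fell to 0.26 (adjusted p = 0.57, edgeR) with offsets for GC content and length. Microglia also express Pde4b. Of the 10 microglia markers 0 passed for VIP by edgeR (all genes, 0.424% higher and 0.0656% lower) and 0 had an unadjusted p under 0.05 (3.28% and 3.14%). Their summed level was 856 to 1644 CPM in control PBS and 818 to 1755 CPM in control VIP. Pde4a, of the same family, measured 9.66, 19.9 and 11.2 CPM in control PBS and 16.4, 16.8 and 12.4 CPM in control VIP. These ranges overlapped (log2 fold change 0.16, adjusted p = 0.82, edgeR).

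Among the PDE3 genes, Pde3a (ENSMUSG00000041741, chromosome 6, 141249269 to 141507448), known for its role in heart muscle, platelets and oocytes, measured 49.3, 27.6 and 51.8 CPM in control PBS. With VIP it measured 91.9, 79.2 and 61.3 CPM, without overlap. The log2 fold change was 0.85 (SE 0.24, adjusted p = 0.257, edgeR) and 0.61 (adjusted p = 0.398) without control PBS library 2. With offsets for GC content and length it was 0.52 and passed (adjusted p = 0.041, edgeR). Pde3a shares 741 exonic bases with the antisense gene Gm28523. The counter's strand setting is not given, so these counts are uncertain. Pde3b, known for insulin-driven cAMP breakdown in fat cells, measured 25.8, 19.6 and 39.0 CPM with PBS and 27.0, 28.7 and 44.1 CPM with VIP (log2 fold change 0.24, adjusted p = 0.79, edgeR). Library 3 gave its highest value in every group.

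The PDE7 and PDE8 genes did not pass. Pde7a, a rolipram-insensitive cAMP phosphodiesterase gene, measured 34.9, 17.8 and 32.4 CPM with PBS and 45.1, 38.9 and 33.7 CPM with VIP, with overlap (log2 fold change 0.47, adjusted p = 0.78, edgeR). It shares 48 exonic bases with the antisense gene Gm16093. Pde7b, which belongs to the same family, measured 4.62, 2.13 and 11.7 CPM with PBS and 6.96, 8.95 and 9.19 CPM with VIP, a span within PBS that covered all VIP values (0.44, adjusted p = 0.79). Pde8a measured 4.52, 7.70 and 5.63 CPM with PBS and 5.78, 8.90 and 7.81 CPM with VIP (0.34, adjusted p = 0.78). Pde8b was the 1 gene of the 10 with a negative value (-0.23, adjusted p = 0.81), at 23.6, 31.0 and 14.5 CPM with PBS and 22.7, 22.8 and 13.4 CPM with VIP. Without control PBS library 2 its log2 fold change was 0.04. Pde8b shares 447 exonic bases with the antisense gene Gm48420.

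**Figure D3:**
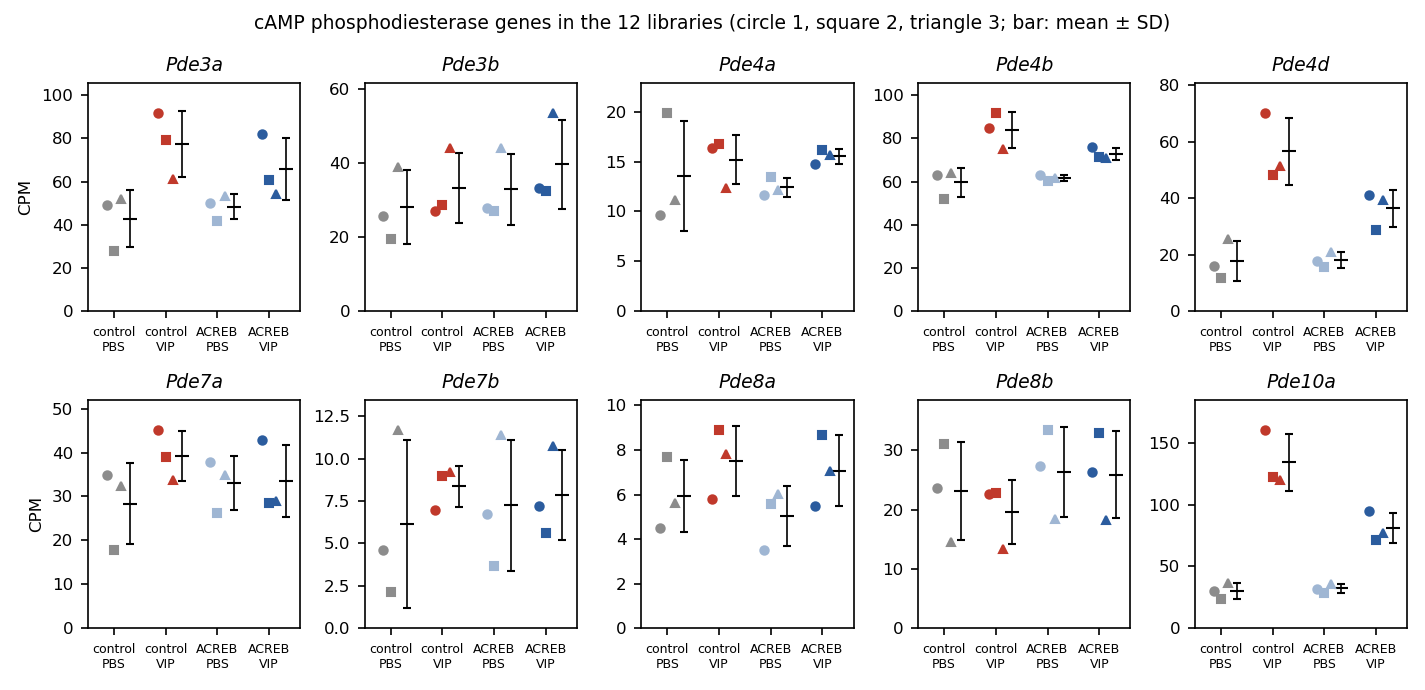
CPM of each of the 10 genes (y axis, starting at 0, with its own scale) in the 12 libraries by group (x axis); the symbol gives the library number and the bar the mean ± SD. All VIP libraries of Pde10a and Pde4d lie above all PBS libraries, and their ACREB VIP libraries lie below their control VIP libraries.

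VIP gave no overlap between groups, in the upward direction, for 4 of the 10 genes (Pde10a, Pde4d, Pde4b and Pde3a), against 4.53% of all genes tested, and in the downward direction for 0 of the 10 (all genes, 5.27%). Within numbers, 7 of the 10 were higher with VIP in all 3 pairs, against 11.5% of all genes. Pde4a and Pde7b were higher in 2 of 3 pairs. Pde8b was lower in all 3, as were 15% of all genes.

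The second comparison asked what VIP did to these genes with the ACREB virus. Pde10a and Pde4d again had the highest fold changes, 2.50-fold and 2.01-fold, and no gene of the 10 passed the test. Pde10a measured 32.1, 28.9 and 36.2 CPM in ACREB PBS and 94.8, 71.2 and 76.9 CPM in ACREB VIP, and the groups did not overlap. Its log2 fold change was 1.32 (SE 0.18, adjusted p = 0.0603, edgeR), just outside the threshold. With the replicate block it was 1.32 and passed (adjusted p = 0.00694, edgeR), and it also passed with DESeq2 (adjusted p = 7.51e-07), without a filter on low counts (adjusted p = 0.00138, edgeR) and with offsets for GC content and length (adjusted p = 0.00112, edgeR). It passed in 3 of the 12 fits that left out 1 library, those without control PBS library 2 (adjusted p = 0.013), control PBS library 3 (0.038) or control VIP library 1 (0.046), by edgeR.

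Pde4d measured 17.7, 15.5 and 21.02 CPM in ACREB PBS and 41.1, 28.9 and 39.3 CPM in ACREB VIP. The groups did not overlap, and library 2 was the lowest in both. The log2 fold change was 1.01 (SE 0.26, adjusted p = 1, edgeR), at an unadjusted p of 0.0023. With the replicate block it was 1.00 (adjusted p = 0.136, edgeR), and with the block together with offsets for GC content and length it was 0.97 and passed (adjusted p = 0.0246, edgeR). Pde4b measured 62.8, 60.3 and 61.6 CPM with PBS and 76.0, 71.4 and 71.0 CPM with VIP, again without overlap (0.24, SE 0.11, adjusted p = 1, edgeR). Pde3a measured 50.1, 41.9 and 53.2 CPM with PBS and 82.0, 61.0 and 54.3 CPM with VIP, where library 3 differed by 0.03 on the log2 scale. Its log2 fold change was 0.44 (adjusted p = 1, edgeR).

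None of the 10 genes passed edgeR's test for VIP with ACREB in either direction, where 0.0119% of all genes were called higher and 0% lower. At an unadjusted p under 0.05 there were 2 higher genes, Pde10a and Pde4d (all genes, 1.28%), and 0 lower (all genes, 0.644%). DESeq2 called 1 gene, Pde10a, among 25 genes it called higher and 2 lower in all. The groups did not overlap for 5 of the 10 genes, Pde10a, Pde4d, Pde4b, Pde3a and Pde4a, all upward (all genes, 3.45%), and for 0 downward (all genes, 3.26%). In all 3 pairs, 7 of the 10 were higher (all genes, 12.2%) and 1, Pde8b, was lower (all genes, 13.1%). The median log2 fold change was 0.30, beside 0.00 over all genes. Pde4a moved from 11.6, 13.5 and 12.1 CPM with PBS to 14.7, 16.1 and 15.7 CPM with VIP (0.32, adjusted p = 1, edgeR). Pde8a had a value of 0.49, Pde3b of 0.27, Pde7b of 0.12, Pde7a of 0.02 and Pde8b of -0.03, all with an adjusted p of 1.

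**Figure D4:**
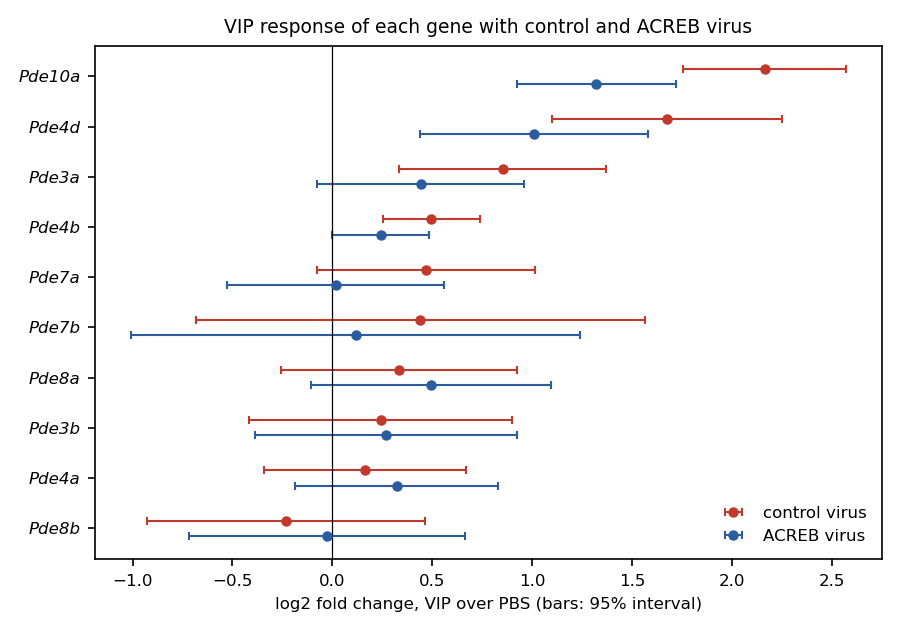
Log2 fold change of VIP over PBS (x axis) for each gene, with control virus and with ACREB; points are edgeR estimates and lines 95% intervals derived from the test. The estimates for Pde10a are 2.16 and 1.32 and those for Pde4d 1.68 and 1.01.

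The interaction addressed whether CREB is needed for the response to VIP, as the response with ACREB minus that with control virus. Both VIP contrasts enter it, so it does not stand apart from them. Pde10a had a difference of -0.84 (95% interval -1.40 to -0.29, SE 0.26) and an unadjusted p of 0.0064, which ranked 13 of all genes tested, but an adjusted p of 1 by edgeR. Within the numbers its rise with ACREB was smaller by 0.86, 1.09 and 0.62 on the log2 scale, which is -0.86 ± 0.231 (SD, n = 3). Pde4d had a difference of -0.67 (95% interval -1.46 to 0.13, SE 0.37, adjusted p = 1, edgeR), with values of -0.93, -1.14 and -0.10 within the numbers. Library 3, which had the highest Pde4d level in control PBS, gave the smallest difference.

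No gene of the 10 passed the interaction, and neither did any other gene tested (0% higher and 0% lower). At an unadjusted p under 0.05, 1 of the 10 was lower, Pde10a (all genes, 0.65%), and 0 were higher (all genes, 0.549%). DESeq2 called 0. The remaining values ran from -0.45 for Pde7a and -0.41 for Pde3a to 0.20 for Pde8b, with -0.25 for Pde4b. In all 3 numbers, 5 of the 10 had a smaller rise with ACREB (Pde10a, Pde4d, Pde4b, Pde3a and Pde7a), against 13.8% of all genes. Pde8b had the larger value with ACREB in all 3 (by 0.008, 0.42 and 0.11), as did 15.2% of all genes. Their intervals include differences in either direction except for Pde10a, so a like response in both viruses was not shown for the rest.

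The last 2 comparisons set ACREB against control virus at the same treatment. They share libraries with the comparisons above and repeat the same values from another side. Microglia markers had higher values with ACREB. All 10 had a positive log2 fold change for ACREB over control virus, with a median of 0.40 with PBS and 0.46 with VIP, though 0 passed by edgeR and 0 had an unadjusted p under 0.05. Their summed level was 1111 to 2060 CPM in ACREB PBS and 1060 to 2163 CPM in ACREB VIP, which overlapped the control groups. Pde4b, which microglia express, gave 0.05 with PBS and -0.21 with VIP. The part of these cells in the virus comparisons was not tested. Without VIP, Pde10a (0.11) and Pde4d (0.03) differed little between the viruses, with 95% intervals of -0.28 to 0.51 and -0.54 to 0.60. The 10 values ran from -0.24 for Pde8a to 0.24 for Pde7b. No gene passed edgeR's test (all genes, 0.00597% higher and 0.0298% lower), none had an unadjusted p under 0.05 (2.58% and 2.72% of all genes), and DESeq2 called 0, where it called 44 genes higher and 73 lower in all. The groups did not overlap for 0 of the 10 genes (all genes, 4.34% higher and 4.44% lower).

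With VIP, Pde10a had a log2 fold change of -0.73 for ACREB over control virus (SE 0.18, adjusted p = 0.289, edgeR), and its 3 ACREB libraries lay below the 3 control libraries. Pde4d gave -0.64 (SE 0.26, adjusted p = 0.74, edgeR), also without overlap. These were 2 of the 10 genes, against 7.06% of all genes without overlap in that direction, and 0 of the 10 did so upward (all genes, 6.97%). No gene of the 10 passed (all genes, 0.0179% higher and 0.0358% lower). At an unadjusted p under 0.05, 2 were lower (2.82% of all genes) and 0 higher (2.88%), and DESeq2 called 1, Pde10a (-0.73, adjusted p = 0.044), among 48 genes it called higher and 86 lower in all. With offsets for GC content and length Pde10a passed in edgeR (-0.74, adjusted p = 0.021). Pde8b stood at the other end (0.40, adjusted p = 1, edgeR). It measured 22.7, 22.8 and 13.4 CPM in control VIP and 26.3, 32.9 and 18.3 CPM in ACREB VIP, higher with ACREB in each number while the groups overlapped.

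Several of the genes, Pde3b, Pde7b and Pde8b among them, had the same library number highest or lowest in every group. Pde3b was highest in library 3 of every group, from 39.0 to 53.6 CPM, and between 19.6 and 33.2 CPM in the other 8 libraries. Pde7b was also highest in library 3 of every group, at 9.19 to 11.7 CPM. Pde8b was lowest there, at 13.4 to 18.4 CPM, against 22.7 to 33.4 CPM in libraries 1 and 2. Pde8a was lowest in library 1 of every group, at 3.49 to 5.78 CPM, and Pde4d, which also rose with VIP, in library 2. Pde4a was highest in library 2 of every group and Pde7a in library 1. How many of all genes keep such an order was not counted, and libraries of the same number deviated together across all genes tested. What the number stands for is not given in the labels.

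Other genes of the cAMP pathway were examined as lists. Of 14 further phosphodiesterase genes 8 were tested. For VIP with control virus 0 passed by edgeR (all genes, 0.424% higher and 0.0656% lower). At an unadjusted p under 0.05, 1 was higher (all genes, 3.28%) and 1 lower (all genes, 3.14%). These were Pde1a (0.59, adjusted p = 0.74), which encodes a calcium-calmodulin-dependent enzyme, and Pde1b of the same family (-0.48, adjusted p = 0.258). Pde1b measured 34.7, 49.8 and 36.8 CPM in control PBS and 28.4, 29.9 and 28.8 CPM in control VIP, without overlap. The values were 0.37 for Pde5a and -0.25 for Pde9a, both of cGMP breakdown, -0.18 for Pde6d, which encodes a prenyl-binding protein, 0.28 for Pde1c, -0.07 for Pde6h and -0.37 for Pde11a. Pde4c, the remaining PDE4 gene, had 2 counts over the 12 libraries, and Pde2a had 3. Pde2a shares 3955 exonic bases with Gm45837 on the same strand, so its low count is uncertain. Exons of Pde5a, Pde6h and Pde9a overlap genes on the opposite strand, so their counts are uncertain as well.

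Genes upstream and downstream of cAMP were tested by edgeR for VIP with control virus. Here 0 of 8 tested adenylyl cyclase genes, 0 of 13 cAMP effector genes and 0 of 7 VIP receptor and G protein genes passed. Over all genes tested, 0.424% were called higher and 0.0656% lower, so 0 is near that share in lists this small. The smallest p in each list belonged to Adcy9 (-0.35), to the cAMP-activated exchange factor gene Rapgef4 (0.63) and to the G protein gene Gnal (0.54), with adjusted p of 0.78, 0.62 and 0.65. At an unadjusted p under 0.05 these lists had 0, 1 and 1 higher genes (all genes, 3.28%) and no lower gene (all genes, 3.14%). Gnal shares 852 exonic bases with Mppe1 and Rapgef4 shares 337 with Rapgef4os2, each on the opposite strand, so both are uncertain. Among 15 anchoring and partner proteins of phosphodiesterases, Ndel1, a dynein regulator, rose. It measured 46.2, 51.5 and 45.4 CPM in control PBS and 110.5, 87.8 and 75.9 CPM in control VIP (0.94, SE 0.14, adjusted p = 0.0119, edgeR), and 45.0, 48.4 and 46.9 CPM in ACREB PBS against 69.8, 61.2 and 57.4 CPM in ACREB VIP (0.42, adjusted p = 1).

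Neuron markers were compared because PDE10A is a neuronal enzyme in the striatum. The 8 striatal projection neuron markers summed to 59.5 to 75.4 CPM in control PBS and 69.0 to 77.0 CPM in control VIP, and 0 of the 7 tested passed by edgeR or reached an unadjusted p under 0.05. Of 13 neuron markers 11 were tested and Gad1 rose (1.66, adjusted p = 0.0135, edgeR), with summed levels of 442.5 to 553 CPM in control PBS and 478 to 583 CPM in control VIP. The summed markers of 2 other cell types were lower with VIP and control virus without overlap. Oligodendrocyte lineage markers summed to 1357 to 1860 CPM in control PBS and 1210 to 1311 CPM in control VIP, and ependymal markers to 437.7 to 460.4 CPM and 320.7 to 419.2 CPM. With ACREB both sums overlapped between PBS and VIP, at 1295 to 1411 against 1155 to 1368 CPM and 379.6 to 468.1 against 366.9 to 417.1 CPM. Of the 10 oligodendrocyte lineage and 5 ependymal markers tested, 0 passed by edgeR for VIP with control virus (all genes, 0.424% higher and 0.0656% lower). In each list 1 was lower at an unadjusted p under 0.05 (all genes, 3.14%). The part of any of these cells in the changes of Pde10a, Pde4d and the other genes with VIP was not tested.

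The genes most like Pde10a and Pde4d were sought by the root mean square difference of log2 CPM over the 12 libraries, each gene centred on its own mean, among 12409 genes that are not members. For Pde10a these were Eprs (0.26), Srgap1 (0.28), Txndc11 (0.29), Rnf217 (0.30) and Syt4 (0.32), where the median gene was at 0.96. For Pde4d these were Rfx4 (0.21), Rnf217 (0.23), Eprs (0.23), Nap1l5 (0.24) and Pls1 (0.24), with a median of 0.81. Eprs and Rnf217 were near both genes. Txndc11 shares 75 exonic bases with Snn and Syt4 shares 566 with Gm26658, each on the opposite strand, and Srgap1 shares 131 with Gm48804 on its own strand, so these levels are uncertain.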

How the data were processed

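Strand-specific polyA RNA libraries from astrocyte-enriched cultures were counted by the authors, who deposited raw counts per Ensembl gene with no normalization. Reads were handled with STAR 2.7.1a, Trimmomatic 0.39 and HTSeq 0.11.2 on GRCm38, with edgeR in R 3.6.1 also named, per the submitters' processing notes. How HTSeq treated strand, and with which annotation, is not given in the sources used here. Symbols, positions and exonic lengths came from GENCODE M21 (GRCm38), which matched 55394 of 55573 gene identifiers.

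In R 4.3.3, edgeR 4.0.16 kept 16761 genes with filterByExpr, scaled libraries by TMM and fitted all 12 libraries in 1 quasi-likelihood model of 4 group means (residual degrees of freedom 8, prior 3.99). The threshold was a Benjamini-Hochberg adjusted p of 0.05 across the genes tested. CPM uses TMM-adjusted library sizes, and log2 CPM a prior count of 2. The SE was derived from edgeR's F statistic (the size of the log2 fold change over the root of F). The alternatives were DESeq2 1.42.0, other scalings and filters, offsets for GC content and length, a replicate block, fewer groups, and each library left out; leaving out both PBS libraries numbered 2 was added after seeing the data. The model was tested on simulated data.

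Deviations from the group mean correlated across genes between libraries of the same number in 18 of 18 pairs (0.132 to 0.679). For this reason differences were also given within each number. The main edgeR test left the number out, and only the fits with a replicate block used it. The main calls therefore ignore this pairing, and those of Pde4b and Pde10a that changed with the block are given above. The genes and lists were chosen with earlier results of these data known. All phosphodiesterase genes tested were named. From the other lists those past the threshold were named, or the 1 with the smallest p, and Pde4c and Pde2a were added after their values were seen, as were the genes that followed the library number. The 5 genes most like each called gene needed a mean of at least 2 CPM.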

Additional observations from a re-analysis of the deposited data

Results flagged for a closer look

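For Pde3a the difference between ACREB and control virus had one sign in all 3 numbers with PBS and the other in all 3 with VIP. On the log2 CPM scale ACREB was higher by 0.02 to 0.60 with PBS (mean 0.22), and the difference was -0.38 to -0.16 with VIP (mean -0.24), a change of -0.46. For Pde7a the difference was 0.11 to 0.56 with PBS (mean 0.26) and -0.45 to -0.07 with VIP (mean -0.25), a change of -0.51. The pattern of signs itself was not tested, and edgeR's interaction did not pass for either gene (adjusted p = 1). It was seen in 2 of 20 genes examined and in 3.32% of all genes tested. The fitted difference between the viruses with PBS was 0.17 for Pde3a and 0.22 for Pde7a, and without control PBS library 2 it was -0.06 and -0.02.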

How the results depend on the processing

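Of the log2 fold changes of the 10 genes, 37 were followed under other processing. Not every value given above was among them, and those of Pde4b for ACREB over control virus were not. The 37 values were recomputed 444 times with a single library left out and 327 times under other settings. Of these fits, 416 and 298 kept their direction and their side of the threshold. With control virus, 2 genes were higher with VIP, and leaving out a library gave 1 to 2. Fitting only the 2 groups compared gave 0. DESeq2 and the replicate block each gave 3, with Pde4b added, and the offsets gave 3 without and with the block, with Pde3a added. With ACREB, 0 genes were higher with VIP, and leaving out a library gave 0 to 1. There were 1 without a filter, 1 with DESeq2, 1 with the replicate block, 1 with GC and length offsets, and 2 with offsets and replicate block together, where Pde4d passed as well. For ACREB over control virus with VIP, lower genes numbered 1 with DESeq2, 1 with offsets and 2 with offsets and block, which also called 1 gene higher, Pde8b. Over all genes these fits called 86, 41 and 371 lower and 48, 9 and 231 higher, against 6 lower and 3 higher. The replicate block changed no other call than those of Pde4b and Pde10a given above.

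Signs turned only for values that did not pass. With offsets, Pde3a with PBS (ACREB over control) gave -2e-04 and -0.0014 with block, Pde4d there gave -0.0287 and -0.0125, and Pde7a for VIP with ACREB gave -0.0394 and -0.0446. Pde3b for VIP with control virus gave -0.0122 with offsets and block. Without both PBS libraries numbered 2, chosen after seeing the data, Pde8b gave 0.0345 (VIP, control virus) and 0.16 (VIP, ACREB), Pde7a -0.14 and Pde7b -0.21 (VIP, ACREB), and Pde4d -0.0943 (ACREB, PBS). With single libraries left out, VIP with control virus ranged from -0.004 to 0.55 for Pde3b, -0.0321 to 0.54 for Pde4a and -0.48 to 0.0375 for Pde8b. VIP with ACREB ranged from -0.0067 to 0.53 for Pde3b, -0.20 to 0.13 for Pde7a, -0.20 to 0.59 for Pde7b and -0.24 to 0.18 for Pde8b. ACREB with PBS ranged from -0.0578 to 0.33 for Pde3a, -0.19 to 0.39 for Pde4d, -0.0206 to 0.40 for Pde7a, -0.24 to 1.09 for Pde7b and -0.0314 to 0.28 for Pde10a. The interaction ranged from -0.0711 to 0.45 for Pde8b. The causes were not tested.

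Over all genes, 71 were higher and 11 lower for VIP with control virus, against 186 and 71 with DESeq2, 184 and 90 with the replicate block, 132 and 19 with offsets, 362 and 210 with offsets and block, and 2 and 0 with only the 2 groups. With ACREB, 2 genes were higher, against 13 without a filter, 25 with DESeq2, 13 with the block, 5 with offsets and 36 with offsets and block. With 3 libraries a group, the interval of Pde7b is the widest of the 10 genes for VIP in both viruses. Pde8a had fewer counts, at 327 against 346 for Pde7b in control PBS, and a narrower interval.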
